A study of Homo sapiens with 12 samples.

Results

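The proteasome genes described here were every gene named PSM with a letter from A to G and a number, taken from transcripts whose class code against the reference was = (all splice sites shared) or j (at least 1 splice site shared). Of 56537 gene names in the table, 48 met this rule: 19 core subunits (PSMA, PSMB), 6 ATPases (PSMC), 14 lid and base genes (PSMD), 4 activators (PSME), the inhibitor PSMF1 and 4 core assembly chaperones (PSMG). They were carried by 673 transcripts, 533 of class = and 140 of class j. RNA was sequenced from HCT116, an established human colorectal cancer cell line, grown at 21% oxygen (0 h) or moved to 1% O2 for 1, 2 or 24 h, with 3 biological replicates at each of 4 time points and 12 poly(A) libraries in all, from otherwise like cultures in serum-containing medium. Hypoxia began 24 h after plating, and the sources used here do not state when the 0 h cells were collected, so time in culture and time in hypoxia cannot be told apart at 24 h.

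The proteasome is the protease that degrades ubiquitin-tagged proteins in the cytosol and nucleus. Its barrel-shaped core is made of stacked rings: outer rings of alpha subunits, encoded by PSMA genes, gate the entrance, and inner rings of beta subunits, encoded by PSMB genes, hold the peptide-cutting sites. A regulatory cap recognises, unfolds and feeds in substrates with a ring of ATPases (PSMC), base subunits and a lid (PSMD), whereas the PSME activators open the core without ubiquitin and PSMG chaperones help to build it. When proteasome activity falls short, the transcription factor NFE2L1 is known to raise many of these genes together through antioxidant response elements in their promoters.

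Each value is the FPKM of a gene (fragments per kilobase of transcript scaled to the mapped fragments of the library), estimated by the authors with Cufflinks per transcript and summed here over the transcripts of a gene that exceeded 0.5 in at least 3 libraries. Reads per gene were not among the values used, so no counting error is given and the spread of 3 libraries (SD, n = 3) is its measure of precision. Changes were tested on the log2(FPKM + 0.5) scale with limma, using all 12 libraries, and every p was adjusted (Benjamini-Hochberg) over the 15758 gene names past the filter, 45 of them proteasome genes. A gene was taken to have risen or fallen at an adjusted p under 0.01, and is termed called where its log2 fold change was also beyond 1 in size. PSMA8, PSMB8 and PSMB11 did not pass the filter: PSMA8 was listed at 0 in every library, PSMB11 reached at most 0.0227 FPKM and PSMB8 ranged from 0.0781 to 0.321 FPKM before filtering. NDRG1, an established hypoxia-induced gene, went from 23.1 ± 6.75 FPKM at 0 h to 978 ± 150 FPKM at 24 h (log2 fold change 5.40, adjusted p = 1.67e-07). The epithelial marker EPCAM stood at 280 ± 39.1 FPKM at 0 h and 229 ± 15.6 FPKM at 24 h, CDH1 rose from 6.93 ± 1.06 to 23.6 ± 2.55 FPKM (log2 fold change 1.70), and of 6 markers of other cell types none exceeded 0.23 FPKM in any library, PECAM1 being listed at 0 throughout. In such bulk samples fewer cells with a transcript and less RNA per cell cannot be told apart.

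At 24 h the proteasome genes were lower as a group. Of the 45 genes tested, 40 fell at the adjusted p alone, where 24.0% of all genes did, and none rose, where 16.6% of all genes did. Calls by fold and p numbered 19 lower (background 10.5%) and 0 higher (background 8.34%). Over the 13 alternatives that kept every library 15 to 35 were called. The fewest were with median-of-ratios scaling and the most with TPM over all transcripts, which moved the median of all genes to -0.72. The shares of all genes called under these scalings are not given here, so these counts have no background. Without rescaling the median log2 fold change was -0.94, against -0.09 for all genes tested. In 40 genes every 24 h library lay below every 0 h library, an arrangement seen in 34.0% of all genes, and in PSME1 every 24 h library lay above, as in 25.4% of all genes. PSMB9, PSMD10, PSME2 and PSME4 overlapped between 0 h and 24 h. The proteasome genes also varied together between libraries of one time point: in 35 of 45 genes replicate 1 was the highest and replicate 3 the lowest of the 0 h libraries, an order seen in 24.4% of all genes, so their fold changes are not independent of one another.

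**Figure D1:**
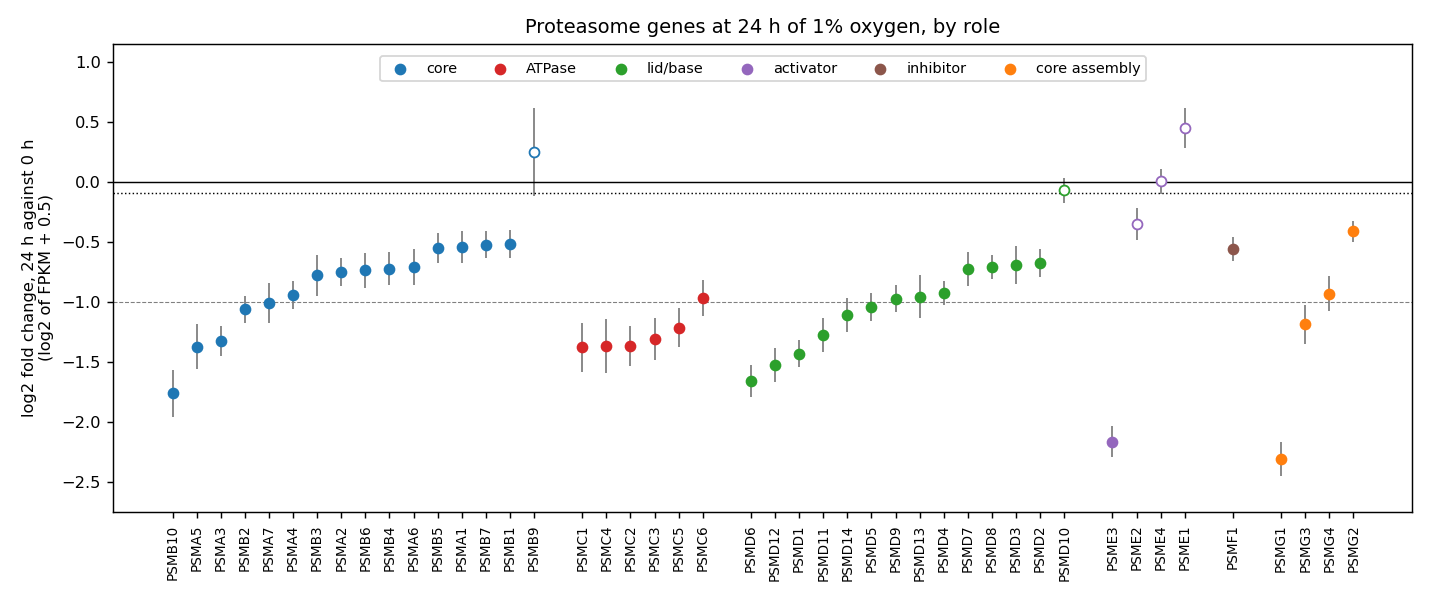
Log2 fold change at 24 h against 0 h (vertical axis, log2 of FPKM + 0.5) of the 45 tested proteasome genes, grouped by role. Points are limma estimates and bars their standard errors; filled points passed an adjusted p of 0.01, the dotted line marks the median of all genes (-0.09) and the dashed line -1. All filled points lie below 0; of the open points PSMB9, PSME1 and PSME4 lie above it, and each of these lies below 0 with TPM scaling over all transcripts.

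Within the first hours no proteasome gene passed the adjusted p. At 1 h and at 2 h, 0 of 45 passed limma's adjusted p of 0.01, alone or with the fold, as did few genes of any kind (0.00635% higher by either rule at 1 h, and 0.0317% with the fold and 0.0508% without it at 2 h). At an unadjusted p under 0.05, 0 genes passed at 1 h (4.32% of all genes) and 2 at 2 h (15.0% of all genes), the activator PSME4 and the inhibitor PSMF1. PSMF1 read 93.4, 82.4 and 83.7 FPKM at 0 h and 77.8, 75.9 and 67.8 FPKM at 2 h, for a log2 fold change of -0.23 and an adjusted p of 0.32. PSME4 read 22.5, 22.3 and 20.9 FPKM at 0 h and 28.9, 25.5 and 24.4 FPKM at 2 h, for a log2 fold change of 0.25 and an adjusted p of 0.288. Neither passed after adjustment. Over all 45 genes the log2 fold change ran from -0.15 to 0.43 at 1 h and from -0.31 to 0.31 at 2 h. The direct contrast of 24 h against 2 h called 19 genes lower (8.08% of all genes) and none higher (6.89% of all genes); at the adjusted p alone it found 38 lower (21.1%) and 0 higher (14.2%). With TPM over all transcripts this contrast called 2, and the share of all genes it called under that scaling is not given here. The comparisons with 0 h share the same 0 h libraries.

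**Figure D2:**
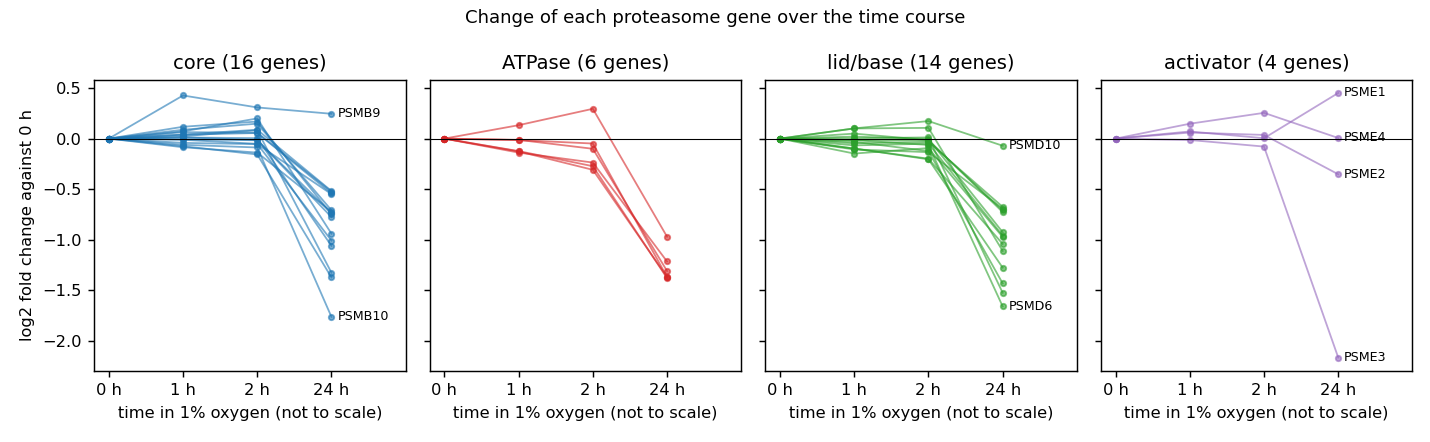
Log2 fold change against 0 h (vertical axis) of each tested core, ATPase, lid/base and activator gene at 1, 2 and 24 h of 1% oxygen; each line is a gene, and the time axis is not to scale. At 1 h and 2 h all lines lie between -0.31 and 0.43. At 24 h the ATPase lines lie between -0.97 and -1.38 while PSME1 stands at 0.45. With TPM over all transcripts PSME1 stands at -0.42 and the median of all genes at -0.72.

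All ATPases fell, within a narrow range. These PSMC subunits form the ring that pulls substrates open and threads them into the core. Of 6 tested, 6 fell and 5 were called, with a median log2 fold change of -1.34. PSMC4 (Rpt3; GRCh37 chromosome 19, 40477072 to 40487671, plus strand) read 170, 139 and 106 FPKM at 0 h and 60.1, 50.9 and 46.5 FPKM at 24 h. Its groups did not overlap, and the log2 fold change was -1.37 (standard error 0.23, adjusted p = 0.000295). PSMC2 (Rpt1) read 131, 112 and 97.4 FPKM at 0 h and 49.1, 46.6 and 35.5 FPKM at 24 h, a log2 fold change of -1.37 (standard error 0.16, adjusted p = 2.61e-05). Its 24 h level was 38.5% of the 0 h level. PSMC3 (Rpt5) fell to 40.0% of its 0 h mean and PSMC5 (Rpt6) to 43.3%. The smallest fall was that of PSMC6 (Rpt4), from 59.6, 49.8 and 48.3 FPKM to 24.6, 28.9 and 26.1 FPKM (log2 fold change -0.97, adjusted p = 0.000166). PSMC6 alone among the ATPases missed the fold threshold.

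PSMC1 (Rpt2) had a log2 fold change of -1.38, but its level is uncertain. It read 36.1 ± 8.57 FPKM at 0 h, while the pseudogene copies PSMC1P1 and PSMC1P5 were listed at 494 ± 82.4 and 209 ± 48.7 FPKM. Near-identical copies can divide reads, and how they were divided cannot be recovered from these values. The sum of PSMC1 and both copies went from 738 ± 126 FPKM to 282 ± 19.3 FPKM, a log2 ratio of -1.39, so the size of the fall was alike with and without the copies. Of 30 pseudogene copies of proteasome genes in the table, 9 had a mean above 10 FPKM at 0 h, and they belonged to 8 parents. In the other 7 parents the copies stood below their parent, from 4.28% of its 0 h level for PSMB3P2 to 38.5% for PSME2P2.

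The lid and base genes followed. Of the 14 PSMD genes 13 fell and 6 were called, with a median log2 fold change of -0.97. Among lid subunits, the scaffold of the cap around the deubiquitinase, PSMD6 (Rpn7; GRCh37 chromosome 3, 63996226 to 64009686, minus strand) read 131, 117 and 102 FPKM at 0 h and 41.0, 36.2 and 32.3 FPKM at 24 h. The groups were far apart, and the log2 fold change was -1.66 (standard error 0.14, adjusted p = 1.82e-06). PSMD12 (Rpn5) read 188, 158 and 158 FPKM at 0 h and 51.0, 59.2 and 64.3 FPKM at 24 h, a log2 fold change of -1.52 (standard error 0.14, adjusted p = 3.64e-06). PSMD11 (Rpn6), which clamps lid to core, fell to 41.2% of its 0 h level. PSMD14 (Rpn11), the metalloprotease that removes ubiquitin chains from substrates, read 175, 153 and 134 FPKM at 0 h and 74.1, 76.5 and 62.1 FPKM at 24 h. Its groups were far apart, and the log2 fold change was -1.11 (standard error 0.14, adjusted p = 4.36e-05).

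Base subunits moved to different extents. PSMD1 (Rpn2), a large scaffold of the base, went from 131, 118 and 115 FPKM to 51.3, 40.3 and 43.0 FPKM (log2 fold change -1.43, adjusted p = 1.13e-06). PSMD2 (Rpn1), the other large scaffold and a docking site for ubiquitin-like domains, went from 288, 294 and 272 FPKM to 221, 163 and 157 FPKM (log2 fold change -0.68, adjusted p = 0.000469). Neither pair of groups overlapped, and PSMD2 stayed at 63.3% of its 0 h level where PSMD1 stayed at 36.9%. PSMD4 (Rpn10), a ubiquitin receptor, went from 157 ± 16.1 FPKM to 82.2 ± 2.83 FPKM (log2 fold change -0.93, adjusted p = 1.1e-05). PSMD3, PSMD7 and PSMD8 of the lid had log2 fold changes of -0.69, -0.73 and -0.71. The PSMD3 adjusted p lay above 0.01 in 4 of 19 alternatives, each with 1 library left out.

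The 3 PSMD genes that encode chaperones of base assembly did not move alike. PSMD5 went from 34.0, 33.7 and 32.4 FPKM to 13.4, 16.2 and 18.6 FPKM and was called (log2 fold change -1.04, adjusted p = 1.31e-05). PSMD9 fell by 0.97 on the log2 scale (adjusted p = 2.33e-05). Of the PSMD9 FPKM at 0 h on transcripts with an annotated type, 87.3% lay on types other than protein coding. PSMD10, also known as gankyrin, read 45.6, 47.5 and 48.4 FPKM at 0 h and 44.7, 50.3 and 40.2 FPKM at 24 h. Its libraries overlapped, and its log2 fold change of -0.07 (adjusted p = 0.606) became 0.043 with median-of-ratios scaling and 0.0072 without 24 h replicate 3.

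Core subunits fell less. Of 16 tested, 15 fell and 5 were called, with a median log2 fold change of -0.74. In the alpha ring all 7 tested genes fell. PSMA5 read 276, 237 and 198 FPKM at 0 h and 107, 95.8 and 71.6 FPKM at 24 h, a log2 fold change of -1.37 (standard error 0.19, adjusted p = 7.41e-05). PSMA3 fell to 39.6% of its 0 h level (log2 fold change -1.33, adjusted p = 3.72e-06). PSMA1, the smallest fall of the ring, went from 299, 242 and 235 FPKM to 183, 177 and 170 FPKM (log2 fold change -0.54, adjusted p = 0.00504). PSMA1 shares its Cufflinks locus with COPB1, as PSMA2 does with C7orf25 and PSMA6 with KIAA0391, and the PSMA1 adjusted p lay above 0.01 in 10 of 19 alternatives.

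The beta subunits that cut peptides all fell, each by less than the fold threshold, although the adjusted p lay above 0.01 for PSMB5 in 4 and for PSMB7 in 3 of 19 alternatives, both without 0 h replicate 1 (0.0142 and 0.0104). PSMB5, with the chymotrypsin-like site, read 190, 183 and 168 FPKM at 0 h and 144, 127 and 101 FPKM at 24 h (log2 fold change -0.55, adjusted p = 0.0029). PSMB6, with the caspase-like site, went from 209 ± 19.7 FPKM to 127 ± 28.6 FPKM (log2 fold change -0.74, adjusted p = 0.00117). PSMB7, with the trypsin-like site, went from 253 ± 20.6 FPKM to 176 ± 25.1 FPKM (log2 fold change -0.52, adjusted p = 0.00175). In each of these genes the highest 24 h library lay below the lowest 0 h library. Of the noncatalytic beta subunits, PSMB2 was called, from 93.1, 88.3 and 82.1 FPKM to 46.6, 39.4 and 39.7 FPKM (log2 fold change -1.06, adjusted p = 1.09e-05), whereas PSMB1 stayed at 70.3% of its 0 h level (log2 fold change -0.52). PSMA7, the remaining core gene called, went from 415, 358 and 324 FPKM to 221, 193 and 138 FPKM, a log2 fold change of -1.01 (adjusted p = 0.000309).

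Ratios within a library do not depend on scaling between libraries. The mean FPKM of the 6 ATPases relative to that of the 14 constitutive core genes was 0.545, 0.519 and 0.459 at 0 h and 0.362, 0.348 and 0.370 at 24 h. The ATPase mean takes PSMC1 without its pseudogene copies, which were listed far above it, so the height of these ratios is uncertain. All 24 h ratios lay below all 0 h ratios, while the 2 h ratios (0.481, 0.443 and 0.426) overlapped with those at 0 h, though each was below that of the 0 h library with its number. The ratio of the 11 lid and base subunits to the core went from 0.645 ± 0.00609 at 0 h to 0.565 ± 0.0407 at 24 h, again without overlap. Its 2 h values (0.623, 0.600 and 0.617) already lay below every 0 h value (0.638 to 0.649). With 3 libraries against 3 an exact permutation test cannot give a p below 0.1, and none was run on these ratios. The log2 ratio of 24 h over 0 h was -0.50 for ATPase to core and -0.19 for lid and base to core.

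**Figure D3:**
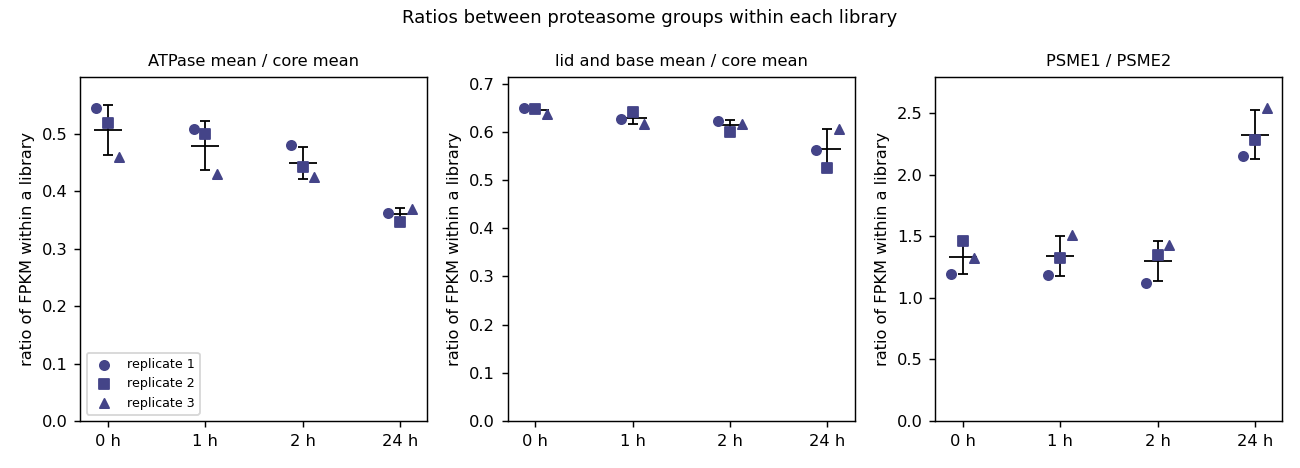
Ratio of FPKM within each library (vertical axes from 0) at each time point, for the ATPase mean over the core mean, the lid and base mean over the core mean, and PSME1 over PSME2. The ATPase mean takes PSMC1 without its pseudogene copies. Symbols are the 3 replicates, and bars give their mean and SD. At 24 h the ATPase to core ratios (0.348 to 0.370) lie below those at 0 h (0.459 to 0.545), and the PSME1 to PSME2 ratios (2.15 to 2.54) lie above those at 0 h (1.19 to 1.46).

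PSMB8, PSMB9 and PSMB10 encode the immunoproteasome versions of the catalytic subunits, which replace the standard ones after interferon and alter the peptides made for antigen presentation. Of these PSMB10 was called at 24 h. PSMB10, which replaces PSMB7, read 47.4, 45.5 and 38.9 FPKM at 0 h and 14.4, 12.6 and 10.9 FPKM at 24 h, the largest fall of the core (log2 fold change -1.76, standard error 0.20, adjusted p = 1.51e-05). Its share in the sum of PSMB7 and PSMB10 was 14.9%, 15.0% and 14.4% at 0 h and 6.62%, 6.74% and 6.67% at 24 h. The 2 sets of shares did not overlap, and the exact permutation p was 0.1, the smallest possible with 3 against 3 (two-sided; adjusted 0.6 over 6 tests). About 99.1% of the PSMB10 value at 0 h lay on transcripts typed as retained introns, chiefly one of 591 bases (41.2 FPKM), at a locus that also carries CTRL, so the coding PSMB10 mRNA is barely represented in it. PSMB9, which replaces PSMB6, read 0.844, 1.83 and 2.68 FPKM at 0 h and 2.86, 2.11 and 1.39 FPKM at 24 h. These values overlapped, and the log2 fold change of 0.25 (adjusted p = 0.6) became -0.28 with TPM over all transcripts (median of all genes -0.72) and -0.094 without 0 h replicate 1. PSMB8 made up at most 0.178% of the unfiltered sum of PSMB5 and PSMB8 in any library. PSMB8 and PSMB9 were each listed at 8 loci, the copies of the major histocompatibility region, and reads divided among them leave both values uncertain.

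Of the 4 activators tested, 1 fell and none rose, which is near the 24.0% of all genes that fell. PSME3 encodes the nuclear activator PA28 gamma, and PSME1 and PSME2 encode PA28 alpha and beta, which assemble into a mixed ring. PSME3 (GRCh37 chromosome 17, 40976402 to 40995777, plus strand) read 194, 161 and 161 FPKM at 0 h, 185, 165 and 139 FPKM at 2 h and 39.5, 35.1 and 38.7 FPKM at 24 h. Its libraries at 24 h stood far below all others, and the log2 fold change was -2.17 (standard error 0.13, adjusted p = 2.32e-07). The PSME3 locus also carries AOC2, but the sum here used only transcripts named PSME3. PSME1 read 83.4, 92.3 and 101 FPKM at 0 h and 138, 131 and 111 FPKM at 24 h, all above the 0 h libraries, but its log2 fold change of 0.45 (standard error 0.17, adjusted p = 0.0352) did not pass and was -0.42 with TPM over all transcripts. That scaling put the median of all genes at -0.72.

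PSME2 read 70.0, 63.0 and 76.2 FPKM at 0 h and 64.0, 57.2 and 43.8 FPKM at 24 h, for a log2 fold change of -0.35 (adjusted p = 0.0428). The groups overlapped in 1 library, and the change did not pass; it did under TPM scaling restricted to transcripts of 300 bases or more (adjusted p = 0.00626). PSME1 and PSME2 lie near each other on chromosome 14 and their products share a ring, yet their ratio within a library went from 1.33 ± 0.136 at 0 h to 2.32 ± 0.198 at 24 h. The ratio of PSME3 to PSME1 went from 1.88 ± 0.386 to 0.301 ± 0.0413. PSME4, which encodes the large activator PA200, read 21.9 ± 0.848 FPKM at 0 h and 22.0 ± 0.877 FPKM at 24 h, a log2 fold change of 0.01 (standard error 0.10, adjusted p = 0.966) that was negative in 5 alternatives. PSMF1 encodes the inhibitor PI31 and fell from 86.5 ± 6.02 FPKM to 58.7 ± 6.94 FPKM (log2 fold change -0.56, adjusted p = 0.000543). Of the PSMF1 FPKM at 0 h on transcripts with an annotated type, 69.2% lay on types other than protein coding.

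**Figure D4:**
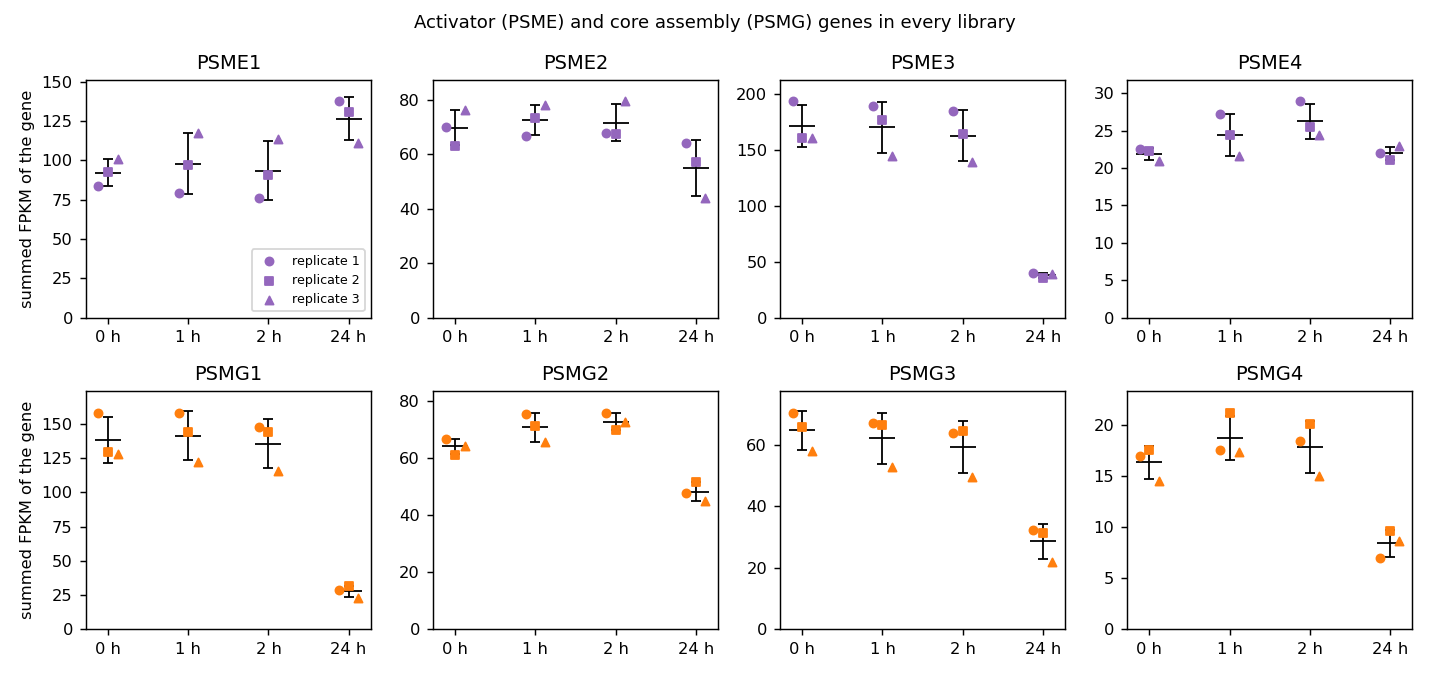
Summed FPKM (vertical axes from 0) of the PSME activators and the PSMG core assembly chaperones in all 12 libraries, by time in 1% oxygen. Symbols are the 3 replicates, and bars give their mean and SD. PSME3 and PSMG1 drop at 24 h to 37.7 and 27.6 FPKM on average, PSME4 stays near 22 FPKM, and PSME1 lies between 111 and 138 FPKM at 24 h against 83.4 to 101 FPKM at 0 h.

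The PSMG genes encode the chaperones that pair up to assemble the alpha ring, PAC1 with PAC2 and PAC3 with PAC4. All 4 fell and PSMG1 and PSMG3 were called. PSMG1 (PAC1; GRCh37 chromosome 21, 40546695 to 40555414, minus strand) had the largest fall of any proteasome gene, from 158, 130 and 128 FPKM at 0 h to 28.7, 31.1 and 23.0 FPKM at 24 h. At 2 h it still read 148, 144 and 116 FPKM, and the log2 fold change at 24 h was -2.31 (standard error 0.14, adjusted p = 2.95e-07). Its partner PSMG2 (PAC2) went from 66.8, 61.3 and 64.5 FPKM to 47.8, 51.8 and 45.1 FPKM (log2 fold change -0.41, adjusted p = 0.00171). The limma adjusted p of PSMG2 lay above 0.01 with median-of-ratios scaling (0.0102) and with TPM over all transcripts (0.0175). The PSMG1 to PSMG2 ratio was 2.16 ± 0.194 at 0 h and 0.570 ± 0.0520 at 24 h, without overlap. Over protein-coding transcripts alone, an alternative chosen after seeing the data, the ratio was 0.861 ± 0.0507 at 0 h and 0.249 ± 0.00926 at 24 h, so which partner was listed higher at 0 h depended on the noncoding transcripts, while the ratio was lower at 24 h either way. PSMG3 (PAC3) fell from 64.8 ± 6.30 to 28.5 ± 5.78 FPKM and PSMG4 (PAC4) from 16.3 ± 1.60 to 8.36 ± 1.35 FPKM, and their ratio within a library overlapped between the time points, at 3.75 to 4.17 for 0 h and 2.55 to 4.67 for 24 h.

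The promoters were read for the motif to which NFE2L1 binds. RefSeq promoters of 300 bases (250 before and 50 after the start) were found for 42 of the 48 genes and matched exactly to GRCh37; PSMA7, PSMB1, PSMB6, PSMB7, PSMD4 and PSMG3 had no entry. The letters TGACNNNGC, the form of the antioxidant response element, were searched on both strands and occurred in 13 of 42 proteasome promoters (31.0%) and in 13.6% of all 27305 promoters of this length. The 6 matches below are shown because they cover genes with large and small changes; capitals mark the motif, and each is printed 5′ to 3′ on the strand that carries it.
PSMB3: gcctccgtttTGACTTTGCaaccaaacta
PSMC4: tcctccatagTGACCAAGCcggcctctgt
PSMD3: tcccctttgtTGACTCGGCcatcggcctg
PSMD12: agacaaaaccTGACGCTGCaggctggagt
PSME1: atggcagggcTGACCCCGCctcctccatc
PSMG1: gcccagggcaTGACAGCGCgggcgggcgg

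These stretches lie at chr17:36908880-36908908 (plus strand) for PSMB3, chr19:40477089-40477117 (minus) for PSMC4, chr17:38137013-38137041 (plus) for PSMD3, chr17:65362840-65362868 (minus) for PSMD12, chr14:24605307-24605335 (plus) for PSME1 and chr21:40555542-40555570 (minus) for PSMG1, all on GRCh37. The PSMC4 match lies just past the start in the transcribed part, and the others lie before the start. Genes with a match included PSMG1 with the largest fall (-2.31) and PSME1 (0.45). The median log2 fold change at 24 h was -0.78 over the 13 tested genes with the motif and -0.96 over the 26 without it. CCAAT, the box bound by NF-Y, occurred in 19 of 42 (45.2%) against 35.7% of all promoters, with medians of -1.09 with it and -0.94 without. ACGTG, the core of the hypoxia response element bound by HIF, occurred in 9 of 42 (21.4%) against 21.6% of all promoters, with medians of -0.78 and -0.96. Matches of these motifs can share bases, and a match describes letters in a window rather than a site in use.

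The same test was run on single transcripts. Of 281 transcripts of proteasome genes past the filter, 58 were called lower at 24 h (6.48% of all transcripts) and 2 higher (5.06%), in 27 genes. Without 0 h replicate 1, 36 in place of 60 were called. By annotated type of the nearest reference transcript, 40 of the 58 were protein coding, 17 were of another type and 1 had no type. The most abundant was that of PSMA7 (ENST00000370873, 996 bases), from 359 ± 45.6 to 179 ± 42.0 FPKM. Next came the main transcripts of PSMA3 (244 ± 27.7 to 95.4 ± 7.59 FPKM), PSMA5 (186 ± 28.2 to 69.5 ± 13.8 FPKM) and PSMD14 (152 ± 19.6 to 70.7 ± 7.59 FPKM). The 2 that rose were minor: a PSMA1 transcript of class j and 551 bases, listed at 0 in all 0 h libraries and at 1.33 ± 0.0489 FPKM at 24 h, and a PSMA3 transcript of 435 bases, from 0.201 ± 0.170 to 1.43 ± 0.547 FPKM.

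The study asked about switches to noncoding isoforms, and 36 proteasome genes had both coding and noncoding transcripts, where noncoding covers retained introns, nonsense-mediated decay targets and other types without a full coding sequence. The noncoding share of the FPKM summed over transcripts with an annotated type was higher at 24 h in 4 genes and lower in 0 (limma on arcsine square roots, adjusted p under 0.05), while 6.62% of the 5978 genes with both kinds were higher and 3.11% lower. Only 2 genes passed without 0 h replicate 2, without 0 h replicate 3 or without 24 h replicate 2. The median change was 0.93 percentage points, against 0.67 over all these genes. PSMC4 had the largest change of these 4: its share was 3.13%, 4.68% and 2.69% at 0 h and 14.5%, 14.6% and 9.69% at 24 h, with no overlap (adjusted p = 0.0104). Its coding transcript of 1591 bases went from 119 ± 26.8 to 41.5 ± 5.57 FPKM (log2 fold change -1.50), while a retained-intron transcript of 1532 bases read 3.56, 3.61 and 1.81 FPKM at 0 h and 7.40, 6.69 and 3.93 FPKM at 24 h, a difference that did not pass (adjusted p = 0.0798). PSMD3 went from 1.01% ± 0.459 to 4.10% ± 0.155 (adjusted p = 0.00584), PSMD6 from 1.13% ± 0.492 to 3.63% ± 0.530 (adjusted p = 0.0212) and PSMD4 from 2.07% ± 0.568 to 4.85% ± 1.33 (adjusted p = 0.0483). In 6 genes over 50% of the 0 h FPKM lay on noncoding types, among them PSMB10, PSMD13 (83.9%) and PSMG1 (62.5%), and none of these 6 shares passed the test at 24 h.

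Genes that work with the proteasome moved in part with it. Of 18 tested partners (chaperones, receptors, deubiquitinases and shuttles) 9 fell at 24 h and none rose, where 24.0% of all genes tested fell and 16.6% rose, with a median log2 fold change of -0.34. Called were ADRM1, the ubiquitin receptor Rpn13, from 117 ± 11.7 to 50.4 ± 12.8 FPKM (log2 fold change -1.23, adjusted p = 5.11e-05), UCHL5, the deubiquitinase that docks on it (-1.50, adjusted p = 6.87e-05), USP14, the other cap-bound ubiquitin protease (-1.10, adjusted p = 3.22e-06), and ZFAND2A, a stress-induced proteasome-binding protein (-1.99, adjusted p = 0.000161). Of 6 genes of the NFE2L1 pathway 3 fell and 1 rose, against the same 24.0% and 16.6% of all genes. NFE2L1 itself read 78.7 ± 2.00 FPKM at 0 h and 66.4 ± 3.86 FPKM at 24 h (log2 fold change -0.24, adjusted p = 0.0254), which did not pass. NGLY1, the deglycosylase that activates the NFE2L1 protein, rose from 15.6 ± 0.677 to 37.4 ± 10.5 FPKM (log2 fold change 1.19, adjusted p = 0.000134), and VCP, the segregase that extracts it from the endoplasmic reticulum, fell from 126 ± 10.3 to 72.4 ± 7.30 FPKM (-0.79, adjusted p = 3.21e-05).

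Of 6 genes that supply ubiquitin or activate it, 1 passed, no more than the 24.0% of all genes that fell: the polyubiquitin gene UBB was lower at 24 h (1107 ± 59.2 to 595 ± 188 FPKM, log2 fold change -0.94, adjusted p = 0.00195). Of 8 genes of antigen processing, which use the peptides the proteasome makes, 2 rose and 2 fell, near the 16.6% and 24.0% of all genes that did so. TAP1, one subunit of the peptide transporter, rose from 12.4 ± 0.381 to 25.6 ± 7.32 FPKM (log2 fold change 0.99, adjusted p = 0.00029), while its partner TAP2 was called lower, from 25.5 ± 3.79 to 11.4 ± 3.16 FPKM (-1.15, adjusted p = 0.00136).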

How the data were processed

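Values were the transcript FPKM that the authors deposited for 12 libraries (strand-specific poly(A) RNA), made per the labels with CASAVA 1.8.2 and Cufflinks. Per the paper's methods, reads were aligned to hg19 and transcript models were assembled per sample and merged with Ensembl; replicates were not pooled, and no normalisation between libraries is named in the sources used here. The transcript length in bases came from the deposited attribute file.

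Transcripts of class code = or j with FPKM above 0.5 in at least 3 libraries were summed per gene name. limma 3.58.1 in R 4.3.3 (lmFit, eBayes with trend) was fitted to log2(FPKM + 0.5) of 15758 gene names or of all transcripts over 12 libraries, two-sided, with time point as group. Fold changes on this scale understate changes of low genes. Calls needed an adjusted p under 0.01 and, where stated, an absolute log2 fold change above 1. Noncoding shares used GENCODE types matched by Ensembl transcript identifier. Transcripts without a type were left out of them, among these the largest of PSMA1 (147 ± 13.4 FPKM at 0 h). Shares of catalytic pairs were compared by exact permutation (scipy 1.17.1). Steps were tested on simulated data. Other steps used pandas 2.3.3, numpy 2.4.6 and data.table (version 1.17.8), and figures matplotlib 3.10.9, in Python 3.11.15. Gene coordinates are GENCODE's on GRCh37, the build of the deposited files.

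The members, gene lists, motifs and tests were chosen with earlier results of these data known. Genes were named if called, if at either end of their group at 24 h, if activators, inhibitor, chaperones or catalytic pairs, if PSMD4 or PSMD14, or if among the most abundant called transcripts or largest share changes, and, in other lists, if called or most changed; further genes were chosen after their values were seen. Alternatives covered filters, pseudocounts, scaling, the variance model, libraries in the fit, a replicate block and each library left out.

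Whether replicate numbers pair libraries was checked by correlating, across genes, deviations from the time point means. Every pair exceeded 0.1 for 0 h with 2 h (0.113 to 0.333) and for 1 h with 2 h (0.119 to 0.397), so of the comparisons with 0 h only that at 2 h did; the number comes from the labels, which do not describe a pairing.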

Additional observations from a re-analysis of the deposited data

Results flagged for a closer look

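The difference from 0 h was not the same at 24 h as at 2 h in 19 proteasome genes, as tested by limma's contrast of 24 h against 2 h (log2 fold change beyond 1 in size and adjusted p under 0.01, against 8.08% of all genes lower); both differences share the 0 h libraries, which drop out of this contrast. The assembly chaperones PSMG1, PSMG3 and PSMG4 had log2 fold changes of -2.28, -1.06 and -1.05. The activator PSME3 stood at -2.09. In the core, PSMB10 stood at -1.68, PSMA3 at -1.41, PSMA5 at -1.22, PSMA4 at -1.14 and PSMB2 at -1.07. The ATPases PSMC2, PSMC6, PSMC3, PSMC1 and PSMC4 stood at -1.32, -1.27, -1.21, -1.11 and -1.06. Among lid and base genes, PSMD6 stood at -1.60, PSMD12 at -1.54, PSMD1 at -1.31, PSMD14 at -1.22 and PSMD11 at -1.07. With TPM scaling over all transcripts 2 genes passed this contrast, and leaving out 1 library gave 14 to 23. The shares of all genes that passed in these alternatives are not given here. Groups of 3 libraries were not tested for single outlying libraries.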

How the results depend on the processing

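TPM over all transcripts, which sets every library to one sum, moved the median of all genes at 24 h to -0.72. It gave 35 genes called at 24 h, 2 in the contrast of 24 h against 2 h, and group medians of -1.61 (core), -2.16 (ATPase), -1.81 (lid/base) and -1.01 (activator), or -0.89, -1.44, -1.09 and -0.29 relative to all genes. With TPM restricted to transcripts of 300 bases or more, 25 genes were called, with a median of -0.18 over all genes, and with median-of-ratios scaling 15. The shares of all genes called under each of these scalings are not given here, so these counts have no background. Over the 13 alternatives with every library kept, 35 to 41 genes passed at the adjusted p alone, all lower, and 34 of the 40 passed in each; without 1 library 34 to 40 did, fewest without 0 h replicate 1, and 18 to 23 were called. In all 19 alternatives 33 of the 40 passed. At 1 h and 2 h no alternative passed any proteasome gene at limma's adjusted p of 0.01.

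Genes that did not pass turned sign: PSMB9 (-0.28 with TPM over all transcripts, -0.094 without 0 h replicate 1, at most 0.53 without a library), PSMD10 (0.043 with median-of-ratios scaling, 0.0072 without 24 h replicate 3, at least -0.15 without a library), PSME1 (-0.42 with TPM over all transcripts) and PSME4 (-0.052 with class = only, -0.82 and -0.086 with TPM over all and over longer transcripts, -0.025 without 0 h replicate 3, -0.022 without 24 h replicate 3, at most 0.034 without a library); the cause was not tested. PSMA1, PSMB1, PSMB3, PSMB5, PSMB7, PSMD3 and PSMG2 lost the adjusted p in at least 1 alternative. Leaving out 1 library gave 2 to 5 genes with a higher noncoding share (2 without 0 h replicate 2, 0 h replicate 3 or 24 h replicate 2) and 36 to 62 called transcripts (36 without 0 h replicate 1). The log2 ratio of ATPase to core, left out library by library as an alternative chosen after seeing the data, stayed between -0.56 and -0.44, and that of lid and base to core between -0.25 and -0.14.

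With the replicate number as a block, 19 genes were called at 24 h and 40 passed the adjusted p, 0 passed at 1 h and 2 h, and 55 transcripts were called; it changed no other count by over 1.5 times. Same-numbered 0 h and 24 h libraries correlated at 0.0154 to 0.245, and 2 of these 6 libraries correlated best with their own number. Reads per gene were not among the values used, so low genes such as PSMB9 carry no counting error.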
